A study of Mus musculus with 3 samples.

Results

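Immature neutrophils with high Camp and Ngp were taken from 3 single-cell RNA libraries of mouse bone marrow by a fixed rule on a few genes. A cell belonged if Camp and Ngp together reached 20000 CPM (counts per 1000000 of its own unique molecular identifiers, UMIs), Elane stayed below 2000 CPM, Retnlg, Mmp8 and Mmp9 together gave at most 4 UMIs, Il1b and Cxcl2 at most 2 UMIs, and C1qa, C1qb and C1qc at most 2 UMIs. The rule took 4598 of the 26415 cells that had at least 500 UMIs and 300 genes and at most 10% mitochondrial UMIs. All 3 libraries came from C57BL/6 bone marrow enriched for cells carrying Kit, the receptor for stem cell factor. The unchallenged library came from mice at steady state and gave 2903 members. The challenged once library followed a single challenge with Escherichia coli, labelled 24 h, and gave 812 members. The rechallenged library followed 2 challenges, labelled 48 h, and gave 883 members. The labels do not say from which challenge the hours count, by which route the bacteria were given, or how many mice went into a library. The source label reads bone marrow neutrophil, whereas the enrichment label names Kit, so which cells were loaded is given only in part.

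Neutrophils mature in the bone marrow through stages that load one set of granules after another. The proneutrophil stage makes the azurophil granule proteins, among them myeloperoxidase and neutrophil elastase. The next stage, in which division comes to an end, makes the specific granule proteins that give the cells studied here their name, and the last stages make gelatinase granules. The transcription factor C/EBP epsilon, encoded by Cebpe, is required in the mouse for specific granule genes to be made. Camp encodes the antimicrobial peptide cathelicidin, Ngp a cystatin-like granule protein, Ltf the iron-binding lactoferrin and Lcn2 the siderophore-binding lipocalin.

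Camp, Ngp and Ltf lie on chromosome 9 of the mouse, within one stretch. In the GRCm38 annotation (GENCODE M21), Camp spans bases 109847379 to 109849617 on the minus strand, Ngp 110419747 to 110423012 on the plus strand and Ltf 111019271 to 111042767 on the plus strand. The gap between Camp and Ngp was 570.1 kb, and the gap between Ngp and Ltf was 596.3 kb. The 3 promoters are shown because Camp and Ngp define the members, Ltf is a marker outside the rule, and the 3 genes were read at very unequal levels. Each sequence runs from 250 bases before the RefSeq transcript start to 50 bases after it (GRCm38.p6), at chr9:109849407-109849706 on the minus strand for Camp, chr9:110419558-110419857 on the plus strand for Ngp and chr9:111019042-111019341 on the plus strand for Ltf. Capitals mark matches to the motif TTGCNNAA, or TTNNGCAA as it reads on the other strand, in which N is any base. The motif is of the type that factors of the C/EBP family bind.
Camp: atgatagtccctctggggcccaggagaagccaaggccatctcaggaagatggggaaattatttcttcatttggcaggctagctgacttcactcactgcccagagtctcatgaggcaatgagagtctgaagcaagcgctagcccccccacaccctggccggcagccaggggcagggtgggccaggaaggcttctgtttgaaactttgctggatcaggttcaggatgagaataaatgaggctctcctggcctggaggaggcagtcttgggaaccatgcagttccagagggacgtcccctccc
Ngp: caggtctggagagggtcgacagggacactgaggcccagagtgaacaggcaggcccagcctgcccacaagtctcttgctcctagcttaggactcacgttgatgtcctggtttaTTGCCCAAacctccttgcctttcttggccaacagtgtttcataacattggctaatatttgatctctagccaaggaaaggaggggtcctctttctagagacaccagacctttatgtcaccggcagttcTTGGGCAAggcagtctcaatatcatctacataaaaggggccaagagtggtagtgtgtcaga
Ltf: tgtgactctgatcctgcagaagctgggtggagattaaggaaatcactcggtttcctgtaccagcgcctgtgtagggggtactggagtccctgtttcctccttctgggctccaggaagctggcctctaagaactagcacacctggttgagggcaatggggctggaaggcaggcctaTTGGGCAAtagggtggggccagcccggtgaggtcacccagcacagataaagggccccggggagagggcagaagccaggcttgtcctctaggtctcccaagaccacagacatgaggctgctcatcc
The Ngp promoter held 2 matches, at positions -138 to -131 and -11 to -4 from the start, and the Ltf promoter held 1, at -75 to -68. The Camp window held none. The motif was found in 10.8% of the 32851 RefSeq promoters of the same length. It was picked from 5 motifs after their matches were seen, so the matches are a description of these letters. Lcn2, S100a9 and Fcnb also had a match, as did 1 of the 2 Ly6g promoters, and Chil3, S100a8, Elane and Mpo had none.

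Each group was 1 library, so no test between groups was possible and no p-value is given. Values are pooled UMIs of the members of a library per 1000000. Triplets of values belong to the unchallenged, the challenged once and the rechallenged library. Intervals are 95% Poisson intervals for levels and ratios and 95% Clopper-Pearson intervals for shares, and cover counting error only. Differences between mice, and between library preparations, cannot be told apart from the challenges. A gene was counted as higher or lower in 1 library when its ratio passed 1.5-fold after 10 CPM had been added to both sides and the pair held at least 100 UMIs of it, and log2 ratios below are on that scale. Over all genes tested in members, 1.08% were higher and 0.263% lower by this rule for challenged once over unchallenged. The shares were 2.43% and 4.24% for rechallenged over unchallenged, and 1.88% and 9.39% for rechallenged over challenged once. The kept cells numbered 9223, 8650 and 8542 in the unchallenged, the challenged once and the rechallenged library. Members had a median of 11143, 8625 and 9386 UMIs a cell in the same order, and 33609677, 7912347 and 8785687 UMIs in all. In bulk sums of this kind, fewer cells with a transcript and less of it per cell cannot be told apart, so shares of cells are given where they matter.

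Members made up a much smaller share of the challenged libraries than of the unchallenged one. They were 31.5% of kept cells in the unchallenged library (30.5 to 32.4), 9.39% in the challenged once library (8.78 to 10.0) and 10.3% in the rechallenged library (9.70 to 11.002). The 3 other neutrophil stages were cut by the same thresholds for comparison. Elane-high cells had Elane at or above the limit and Camp with Ngp below theirs, transitional cells had both above, and late cells had more than 4 UMIs of the gelatinase granule genes with Elane below its limit. Among cells of the 4 stages, members were 51.5% of the unchallenged library (50.2 to 52.8), 24.5% of the challenged once library (23.1 to 26.0) and 21.1% of the rechallenged library (19.8 to 22.3). Elane-high cells went the other way, with 21.6%, 56.8% and 53.8% of the 4 stages in the same order. Late cells were 11.9% of kept cells in the unchallenged library, 4.81% in the challenged once library and 7.02% in the rechallenged library. Enrichment for Kit was applied to every library and favours early cells, so none of these shares is that of whole marrow, and its yield per library was not given.

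**Figure D1:**
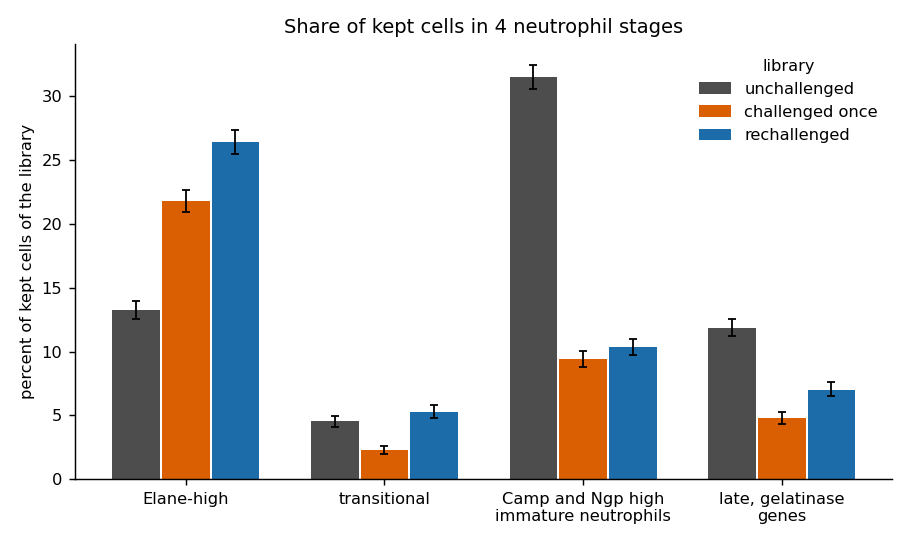
Percent of kept cells (y axis) in each of 4 neutrophil stages (x axis), with 1 bar per library and 95% Clopper-Pearson intervals that cover counting error only. Members of the Camp and Ngp rule stand at 31.5% in the unchallenged library and at 9.39% and 10.3% in the challenged once and rechallenged libraries, while Elane-high cells are the lowest in the unchallenged library.

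The threshold on Camp and Ngp fell in a thinly filled range. Only 26, 8 and 4 members of the unchallenged, the challenged once and the rechallenged library lay between 20000 and 25000 CPM, and 41, 10 and 2 otherwise fitting cells lay between 15000 and 20000 CPM. The limit on Elane lay within a continuous spread, with 50, 20 and 53 members at 1500 to 2000 CPM and 32, 16 and 48 cells just outside at 2000 to 2500 CPM. The limit on gelatinase granule genes was the busiest edge: 193, 62 and 69 members held 4 UMIs of Retnlg, Mmp8 and Mmp9, and 142, 42 and 55 cells just outside held 5. Ltf in the cells at that edge was alike on both sides, at 6714, 6418 and 6768 CPM inside and 6822, 6192 and 5895 CPM outside. The members are thus a range along a continuous sequence and their late border is a convention.

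The markers fitted the label. Ltf was detected in 99.3% of the unchallenged members, 99.9% of the challenged once members and 99.8% of the rechallenged members, with 6372, 5971 and 4895 CPM in the pooled counts. Lcn2 stood at 14018, 15650 and 9401 CPM, and Chil3, a chitinase-like protein of maturing mouse neutrophils, at 7758, 7597 and 4286 CPM. Chil3 and Lcn2 were both lowest in the rechallenged library. Ltf in the members of the unchallenged library was 6.46 times its level in the rest of the kept cells. Camp and Ngp, which chose the cells, stood at 62989, 48113 and 48014 CPM for Camp and 48926, 40394 and 27803 CPM for Ngp. Free RNA can put transcripts this abundant into other droplets: B-marker cells, a group defined after the data were seen as cells with at least 10 UMIs and 3000 CPM of 8 B-lineage markers that missed the Camp and Ngp limit, held 2422, 353 and 424 CPM of Camp and 218, 44.6 and 51.9 CPM of Ltf. Members stood far above those levels in every library. The share of B-marker cells with an Ltf UMI was 68.8%, 14.6% and 10.9%.

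Kit transcripts were nearly absent from the members, with 12.9, 12.8 and 6.37 CPM in the unchallenged, the challenged once and the rechallenged library, although the samples were enriched for Kit. Transcripts of 10 other cell types were all present at low levels. Summed markers of each type were lower in members than in the rest of the kept cells, except those of eosinophils in the rechallenged library. Those stood at 127 CPM in members against 67.0 CPM in the rest. Without thinning, at least 3 UMIs of the 8 erythroid markers were found in 21.9%, 6.40% and 3.06% of members. The 8 B-lineage markers summed to 188, 130 and 24.4 CPM in members against 1278, 925 and 224 CPM in the rest of the kept cells, and the 8 erythroid markers to 251, 119 and 166 CPM against 2855, 1681 and 1142 CPM. Among the 8 genes with the largest lower ratio in each comparison were Jchain, Vpreb1, Vpreb3, Car1 and Car2, markers of B-lineage and erythroid cells, and the part of such RNA in those ratios was not tested. Single cells carried some of them: 5 members held 94.6% of the Jchain UMIs of the unchallenged library and 5 held 95.9% of the UMIs of Prg2, an eosinophil granule gene, in the rechallenged library. These genes are not described further. Barcodes were shared between libraries by 115 kept cells of the unchallenged and challenged once pair, 104 of the unchallenged and rechallenged pair and 97 of the challenged pair, and 73, 22 and 23 members had such a barcode.

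Ly6g differed most among the 6 markers. It encodes the surface protein that the Ly6G antibody binds in the mouse. It stood at 433 CPM in the unchallenged, 213 CPM in the challenged once and 206 CPM in the rechallenged library, and was detected in 85.1% (83.8 to 86.4), 67.0% (63.6 to 70.2) and 59.7% (56.4 to 62.9) of members. Those shares are from cells that were not thinned, at median depths of 11143, 8625 and 9386 UMIs, and the part of depth was not tested. The log2 ratio of Ly6g to the unchallenged library was -0.99 in the challenged once library and -1.04 in the rechallenged library. The level was 0.493 times (0.469 to 0.518) the unchallenged one in the challenged once library and 0.475 times (0.452 to 0.499) in the rechallenged library, and the challenged pair differed by -0.05 on the log2 scale. In B-marker cells a Ly6g UMI was found in 13.1%, 1.41% and 1.89% of cells, at median depths of 3755.5, 2832 and 1413 UMIs. The lower level was also seen in the tertile of members with most Ltf, with log2 ratios of -0.76 for challenged once and -0.61 for rechallenged.

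**Figure D2:**
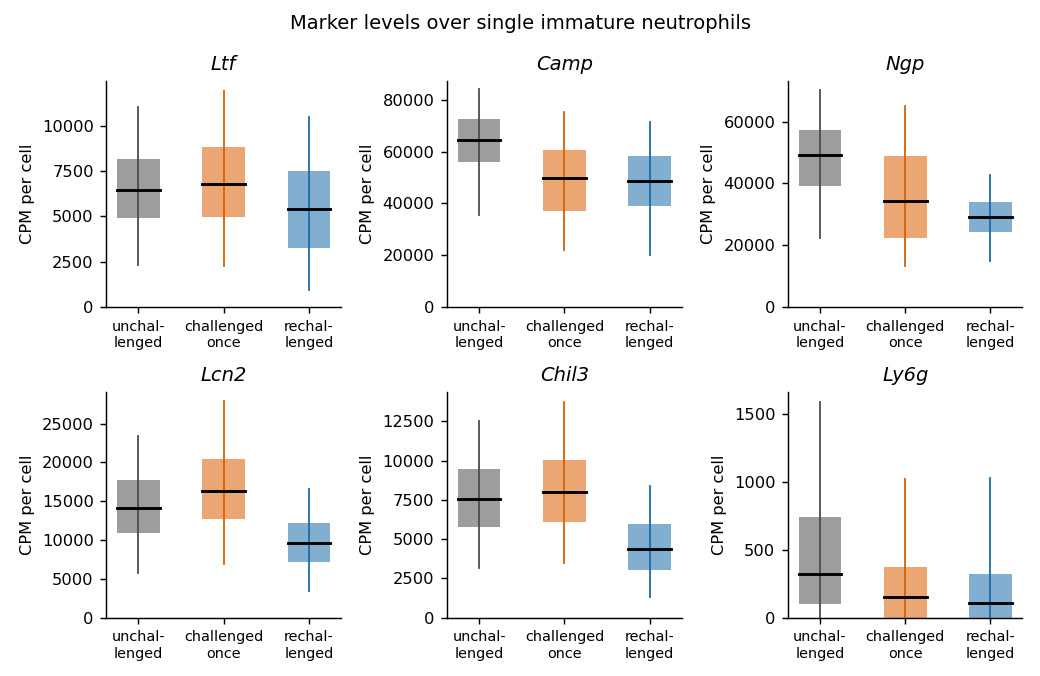
CPM per cell (y axis) of 6 marker genes over single members, by library (x axis); boxes span the 25th to 75th percentile of cells, the bar is the median and the line runs from the 5th to the 95th percentile of cells. Ngp, Lcn2 and Chil3 have their lowest medians in the rechallenged library, and Ly6g is lower in both challenged libraries than in the unchallenged one.

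Camp and Ngp did not keep one ratio. Camp UMIs were 1.29 times Ngp UMIs in the unchallenged members (1.28 to 1.29), 1.19 times in the challenged once members (1.19 to 1.20) and 1.73 times in the rechallenged members (1.72 to 1.74). The median over single cells was 1.31, 1.43 and 1.66, so the challenged once library lay above the unchallenged one by cell and below it by pooled count. The rechallenged library was highest by both. The transitional cells had ratios of 1.98, 1.61 and 2.75 and the Elane-high cells 1.73, 1.89 and 3.26, so Camp led Ngp most in the rechallenged library at those stages too. Ngp spread most in the challenged once members, in which the 25th to 75th percentile of cells ran from 22450 to 48948 CPM around a median of 34404 CPM. That range was 24275 to 33902 CPM in the rechallenged members and 39184 to 57420 CPM in the unchallenged members.

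A few transcripts filled the members. S100a8, a subunit of calprotectin, made up 18.8%, 17.2% and 18.4% of all UMIs in the unchallenged, challenged once and rechallenged members, and its partner S100a9 made up 13.6%, 13.1% and 11.8%. Camp and Ngp together made up 11.2%, 8.85% and 7.58%. The 10 most abundant genes held 50.1%, 45.3% and 43.6%, so every other gene is read from what these leave over. For that reason ratios were also computed with median-of-ratios scaling, which lowers log2 ratios by up to 0.16 for challenged once over unchallenged and raises them by up to 0.18 for rechallenged over unchallenged and up to 0.29 for rechallenged over challenged once.

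Members were next set against the other neutrophil stages of the same library. Because the 4 stages were cut by thresholds on correlated genes, their differences are a description, and a gene is counted here only where it passed 1.5-fold in all 3 libraries. Against transitional cells, 98 of 5674 genes were higher (1.73%) and 405 were lower (7.14%). All 11 measured azurophil granule genes were lower, Elane among them. Mpo, myeloperoxidase, had 170, 174 and 238 CPM in members against 2296, 1978 and 1946 CPM in transitional cells, and Ctsg, cathepsin G, 92.3, 105 and 85.7 CPM against 1018, 997 and 897 CPM. Of the 19 specific granule genes, a list that contains Camp and Ngp, 12 were higher in members and none was lower. Fpr2, a receptor for formylated peptides, had 94.2, 119 and 61.1 CPM in members against 13.2, 10.2 and 5.95 CPM in transitional cells, and St3gal5, a sialyltransferase of ganglioside synthesis, 147, 116 and 72.8 CPM against 22.2, 6.01 and 6.11 CPM. Genes of protein synthesis were lower: 58 of 81 ribosomal protein genes and 16 of 18 genes of folding and secretion in the endoplasmic reticulum.

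Against late cells, 50 of 5300 genes were higher in members (0.943%) and 113 were lower (2.13%). Of the 5 leading higher genes, 4 serve DNA replication or its chromatin: Asf1b, Tk1, Rrm2 and Pclaf. Pclaf, which binds the replication clamp, had 594, 587 and 744 CPM in members against 282, 325 and 316 CPM in late cells. The remaining gene was Fcnb, the lectin ficolin B, at 1054, 823 and 753 CPM against 366, 259 and 224 CPM. Among lower genes were S100a6, a calcium-binding protein, and Fpr1, and 6 of 12 chemotaxis receptors and adhesion genes were lower and none higher. Of the 19 specific granule genes only 1 was higher and 1 lower, and none of the 7 NADPH oxidase subunits passed either way.

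Against Elane-high cells the contrast was widest, with 431 of 9016 genes higher (4.78%) and 2350 lower (26.1%). All 81 measured ribosomal protein genes were lower in members, as were 17 of 18 endoplasmic reticulum genes and 14 of 14 genes of the Myc and ribosome biogenesis list. Summed ribosomal protein transcripts held 93989, 110880 and 175510 CPM in members and 368293, 343306 and 398716 CPM in Elane-high cells. NADPH oxidase genes went the other way, with 6 of 7 higher in members. The oxidase makes the respiratory burst of mature neutrophils.

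S phase transcripts were still found in most members. After each cell was thinned to 2000 UMIs, which left out 62, 20 and 18 shallower members of the unchallenged, the challenged once and the rechallenged library, at least 2 UMIs of the 26-gene S phase list were found in 58.1% (56.3 to 60.0), 61.0% (57.5 to 64.4) and 72.5% (69.4 to 75.4) of members. Without thinning these shares were 89.0%, 84.4% and 90.7%. Elane-high cells stood above members, at 88.7%, 95.9% and 90.9%, and late cells below, at 30.1%, 31.6% and 20.5%. The G2 and M phase list did not share that order. At least 2 of its UMIs were found after thinning in 78.8%, 83.6% and 83.6% of members and 77.7%, 90.2% and 83.8% of Elane-high cells. Late cells stood at 49.0%, 41.2% and 37.5%. Its summed level was 3571, 3821 and 2966 CPM in members and 2356, 2789 and 2220 CPM in Elane-high cells. The summed S phase level in members was 1634, 1715 and 1804 CPM. Only 1 of the 26 genes was past 1.5-fold between the rechallenged and unchallenged members, and it was higher, beside 2.43% of all genes tested. None passed between the challenged once and unchallenged members. Mki67, a marker of dividing cells, stood at 145, 198 and 213 CPM. Free RNA can give such UMIs, and its part was not tested.

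Interferon-stimulated genes were higher in the challenged once members and lower in the rechallenged members than in the unchallenged members. In the challenged once members, 16 of 24 measured genes of the list were higher than in the unchallenged members and none was lower. Over all 8360 genes tested in that comparison, 90 were higher (1.08%) and 22 lower (0.263%), and 62 and 35 with median-of-ratios scaling. The median log2 ratio was 0.86 in the list and 0.09 over all genes. Ifi27l2a, a small interferon-induced membrane protein, stood at 148, 596 and 18.4 CPM in members of the unchallenged, the challenged once and the rechallenged library. Rtp4, a chaperone of receptors that is induced by interferon, stood at 30.5, 92.8 and 1.93 CPM, and Irf7, a transcription factor that amplifies the response, at 14.6, 44.1 and 1.37 CPM. All 3 genes were highest in the challenged once library and lowest in the rechallenged library. Oasl2 and Oas3, of the oligoadenylate synthetase family, had 9.31, 65.2 and 1.71 CPM and 17.8, 47.3 and 3.87 CPM, and Bst2, the virus tether tetherin, 36.8, 114 and 15.3 CPM.

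In the rechallenged members the same list fell to lower levels than in the unchallenged members. Of 24 measured genes, 14 were lower and none was higher, with a median log2 ratio of -0.71, beside -0.09 over all genes. Over all 8317 genes tested, 353 were lower (4.24%) and 202 higher (2.43%), whereas 174 were lower and 355 higher with median-of-ratios scaling. Isg15, a ubiquitin-like modifier, had 1.82 CPM in the rechallenged members against 33.1 CPM in the unchallenged members, a ratio of 0.055 (0.0336 to 0.0901). Against the challenged once members 21 of 22 genes were lower, with a median log2 ratio of -1.58, while 611 of 6506 genes were lower (9.39%) and 122 higher (1.88%), with a median of -0.19 over all. With median-of-ratios scaling 208 were lower and 276 higher. The direction of the list was the same under median-of-ratios scaling in each comparison, with medians of 0.75, -0.65 and -1.45 in the order given.

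The interferon difference was also there per cell. After thinning, at least 1 UMI of the list was found in 60.8% of the unchallenged members (59.0 to 62.6), 86.9% of the challenged once members (84.3 to 89.1) and 37.2% of the rechallenged members (34.0 to 40.5), and the mean was 1.27, 3.98 and 0.479 UMIs per 2000. Counts were unequal between stages. In the Elane-high cells none of 26 genes was higher in the challenged once library than in the unchallenged library, with a median log2 ratio of 0.05, where 1.18% of all genes tested were. In transitional cells 9 of 16 were higher, beside 0.918% of all genes, and in late cells 7 of 22, beside 3.67%. In the rechallenged library the list was lower in every stage than in the unchallenged library, by 10 of 24 genes in Elane-high, 5 of 11 in transitional and 14 of 21 in late cells, beside 5.73%, 10.8% and 10.4% of all genes tested in those stages. Whether the stages differ in their ratios was not tested, for want of replicates. B-marker cells moved with the members, with summed list levels of 2487, 4046 and 1045 CPM beside 602, 1598 and 213 CPM in members, and the part of free RNA in the members' values was not tested.

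Ifitm1, Ifitm2, Ifitm3 and several MHC class I genes were also highest in the challenged once members. Ifitm3, which restricts the entry of viruses, stood at 864, 2690 and 975 CPM, Ifitm1 at 35.8, 137 and 50.4 CPM and Ifitm2 at 385, 676 and 483 CPM in members of the unchallenged, the challenged once and the rechallenged library. Ifitm6 had 1624, 1744 and 1759 CPM and passed 1.5-fold in none of the comparisons. So 3 of the 4 Ifitm genes were higher after 1 challenge, and none was past 1.5-fold in the rechallenged over unchallenged comparison. Ly6e, an interferon-induced relative of Ly6g, had 124, 347 and 118 CPM. Of the 12 measured genes of MHC class I presentation, 3 were higher in the challenged once than in the unchallenged members, and 8 were lower in the rechallenged than in the challenged once members. H2-K1, at 217, 394 and 186 CPM, passed 1.5-fold for challenged once over unchallenged. H2-D1, at 535, 781 and 304 CPM, and H2-T23, at 60.7, 81.3 and 14.1 CPM, were short of it in that comparison. All of these were lower past 1.5-fold in the rechallenged than in the challenged once members. These class I genes are near-identical in parts, so reads may be split between them. The summed class I level in B-marker cells was 7799, 11733 and 6803 CPM, again highest in the challenged once library.

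Genes of protein folding and secretion in the endoplasmic reticulum were higher in the challenged once members. Of 18 measured genes, 9 were higher than in the unchallenged members and none lower. The median log2 ratio was 0.62, and 0.52 with median-of-ratios scaling, short of 1.5-fold. Hspa5, the main chaperone of this compartment, stood at 92.6 CPM in the unchallenged, 216 CPM in the challenged once and 90.3 CPM in the rechallenged members. Calr, calreticulin, stood at 102, 221 and 108 CPM, Sdf2l1, which works with that chaperone, at 39.7, 117 and 46.7 CPM and Manf, a secreted stress factor, at 91.3, 170 and 74.0 CPM. The rechallenged members were thus close to the unchallenged members in these 4 genes, but not in the list as a sum. The summed list stood at 1746, 2739 and 2417 CPM in members of the unchallenged, the challenged once and the rechallenged library. After thinning, the mean was 3.42, 5.03 and 4.72 UMIs per 2000. In the rechallenged members 3 of 18 genes of the list were higher than in the unchallenged members. The other stages showed the difference as well: in the challenged once library 9 of 18 genes were higher in Elane-high cells, 10 of 18 in transitional cells and 13 of 17 in late cells, beside 1.18%, 0.918% and 3.67% of all genes tested. In B-marker cells the summed list stood at 3974, 3831 and 3337 CPM.

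**Figure D3:**
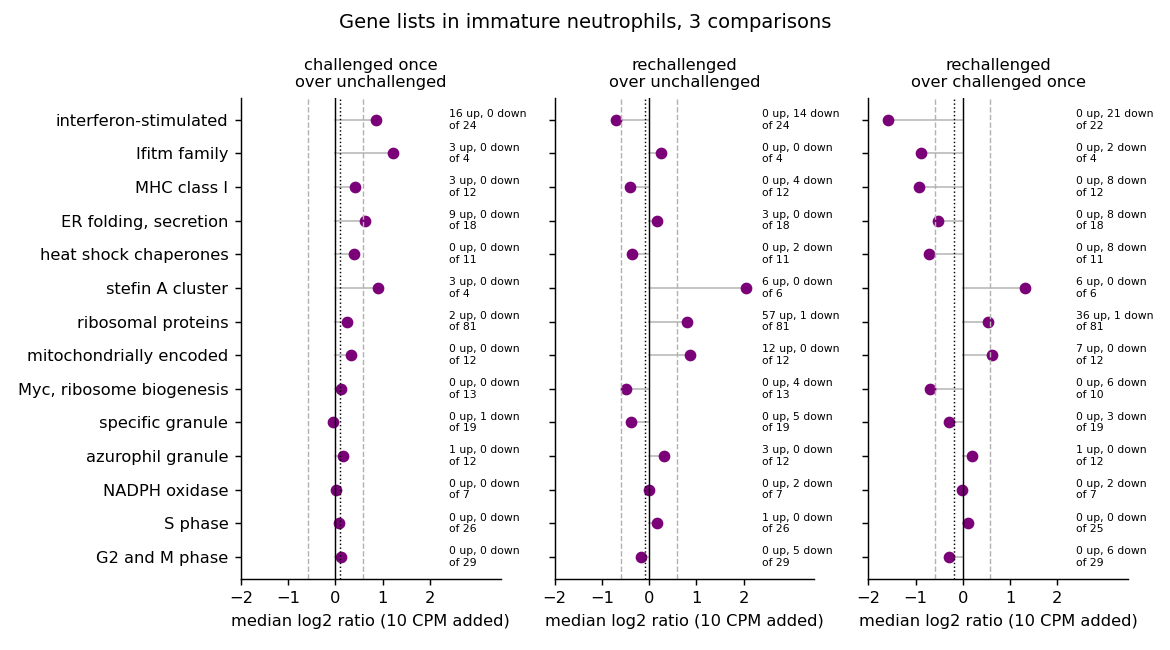
Median log2 ratio with 10 CPM added (x axis) of 14 gene lists (y axis) in members, for 3 comparisons; the dotted line is the median over all genes tested, dashed lines mark 1.5-fold and the counts give genes past it. Interferon-stimulated genes lie right of 0 for challenged once over unchallenged and left of 0 in the other 2 comparisons, while ribosomal protein and mitochondrially encoded genes lie right of 0 for rechallenged over unchallenged.

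A few genes outside these lists stood out in the challenged once members under the rule for named genes. Saa3, an acute phase apolipoprotein, had 0.476, 19.5 and 18.6 CPM in members of the unchallenged, the challenged once and the rechallenged library and was found in 0.310%, 6.90% and 12.6% of them. Lipg, endothelial lipase, had 3.66, 31.5 and 16.6 CPM. Both were higher in both challenged libraries. Olfml2b, an olfactomedin-like extracellular matrix protein, was lower in both, at 28.6, 5.06 and 11.04 CPM. Saa3 was also higher in both challenged libraries outside the members. It stood at 0.707, 50.7 and 29.6 CPM in the rest of the kept cells and at 0.547, 4.95 and 5.95 CPM in B-marker cells. The part of free RNA in the members' Saa3 was not tested.

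The stefin A cluster, a set of cysteine protease inhibitors expanded in the mouse on chromosome 16, was higher in the rechallenged members. Stfa1 stood at 22.3, 38.2 and 174 CPM in members of the unchallenged, the challenged once and the rechallenged library, Stfa2l1 at 0.744, 5.56 and 39.3 CPM and BC100530 at 4.73, 49.8 and 228 CPM. All 6 measured genes of the cluster were higher in the rechallenged than in the unchallenged members, with a median log2 ratio of 2.06, and 3 of 4 were higher in the challenged once members. The challenged once levels rested on few cells, of which 5 held 66.9% of the Stfa1, 79.5% of the Stfa2l1 and 92.1% of the BC100530 UMIs. Without the 5 members holding most of a gene in each library, Stfa1 stood at 14.1, 12.6 and 122 CPM, Stfa2l1 at 0.536, 1.14 and 29.3 CPM and BC100530 at 2.41, 3.92 and 146 CPM. The higher level in the rechallenged members was still there. These paralogs are near-identical, so single genes are uncertain and the summed list is safer. Few members carried them. After thinning, at least 1 UMI of the cluster was found in 2.60% (2.05 to 3.26), 4.55% (3.20 to 6.24) and 18.2% (15.6 to 20.9) of members, against 6.80%, 17.5% and 43.5% of late cells and 0.169%, 0.324% and 1.21% of Elane-high cells. B-marker cells stood at 0.460%, 0.832% and 1.19%. S100a6, which is also higher in late cells, stood at 358, 690 and 1148 CPM in members and at 1835, 3835 and 9000 CPM in late cells.

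Ribosomal protein transcripts were higher in the rechallenged members. Of 81 measured genes, 57 were higher than in the unchallenged members and 1 was lower, and the median log2 ratio was 0.80 (0.97 with median-of-ratios scaling). Rps12 stood at 1326, 1793 and 4187 CPM and Rpl41 at 2472, 3404 and 7695 CPM in members of the unchallenged, the challenged once and the rechallenged library. Per cell after thinning, these genes made up a median of 7.25%, 7.30% and 15.7% of UMIs, and the 25th to 75th percentile of cells held 124 to 180, 122 to 198 and 245 to 394 UMIs per 2000. The rechallenged range lay above the other 2. In the same comparison 3 of 81 genes were higher in Elane-high cells and 3 lower, beside 1.66% and 5.73% of all genes tested. In transitional cells 9 of 81 were higher, beside 2.45% of all genes, and in late cells 17 of 82, beside 2.81%. In the challenged once members 2 of 81 were higher than in the unchallenged members. B-marker cells held 293373, 306971 and 363256 CPM of the list, and some single genes moved in them as they did in members: Rpl38 had 1099, 1205 and 3194 CPM in members and 2901, 2582 and 6056 CPM in B-marker cells, and Rpl35 748, 633 and 2156 CPM and 2657, 2011 and 4208 CPM. What the libraries as a whole add to the members' difference was not tested.

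The 13 mitochondrially encoded genes followed the same order, and all 12 measured ones were higher in the rechallenged than in the unchallenged members, with a median log2 ratio of 0.86. mt-Co1, a subunit of cytochrome oxidase, stood at 2723, 3272 and 6094 CPM. Mitochondrial UMIs were a median of 0.938%, 1.34% and 2.10% of a member's total. In B-marker cells the list stood at 24988, 24889 and 46294 CPM. A histone gene differed between libraries in 3 cell groups: Hist1h2ap had 596, 184 and 2058 CPM in members, 460, 113 and 1314 CPM in Elane-high cells and 1496, 365 and 3378 CPM in B-marker cells. The S phase list holds no histone gene.

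Of 19 measured specific granule genes, 5 were lower in the rechallenged than in the unchallenged members and none was higher. Over all genes tested 4.24% were lower and 2.43% higher. The median log2 ratio of the list was -0.38, against -0.20 with median-of-ratios scaling. Ngp, at a log2 ratio of -0.82, is one of the 5, and Camp and Ngp chose the cells. Of the 17 genes that remain without those 2, Chil3, Itgb2l, Lyz2 and Ly6g were lower, with a median of -0.37. Their sum was 57598, 56244 and 43860 CPM in members of the unchallenged, the challenged once and the rechallenged library. Chil3 had a log2 ratio of -0.85 for rechallenged over unchallenged. Lyz2, lysozyme M, stood at 12201, 9949 and 7478 CPM, and its ratio for rechallenged over unchallenged was short of 1.5-fold with median-of-ratios scaling. Wfdc21, a whey acidic protein family member, went against the list, at 6384, 5941 and 7867 CPM. In the challenged once members 1 of 19 genes was lower, Ly6g, and the list median was -0.05 (-0.20 with median-of-ratios scaling).

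Of 17 measured regulators of the neutrophil programme, 1 was higher and 2 were lower in the rechallenged than in the unchallenged members. Over all genes tested 2.43% were higher and 4.24% lower. The median log2 ratio was -0.11 in the list, beside -0.09 over all genes. The 2 lower regulators were the transcription factors Cebpe and Cebpd, and the higher one was Trib1, which is not a transcription factor. Cebpe stood at 721, 802 and 435 CPM in members of the unchallenged, the challenged once and the rechallenged library, with a log2 ratio of -0.72 for rechallenged over unchallenged that was -0.55 with median-of-ratios scaling, short of 1.5-fold. Cebpd, encoding a related factor, stood at 249, 234 and 127 CPM, and its log2 ratio of -0.92 was -0.75 with that scaling. Cebpb, linked in the mouse to emergency granulopoiesis, stood at 198, 208 and 215 CPM and passed 1.5-fold in no comparison. Gfi1 was low, at 12.9, 16.3 and 15.7 CPM. Nfkbia, an inhibitor of NF-kappa-B, stood at 188, 193 and 75.6 CPM.

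Of 11 measured heat shock chaperones, 8 were lower in the rechallenged than in the challenged once members, beside 9.39% of all genes tested. The median log2 ratio was -0.72, beside -0.19 over all genes, and -0.50 with median-of-ratios scaling, short of 1.5-fold. Against the unchallenged members 2 were lower, beside 4.24% of all genes, with a median of -0.36. None was past 1.5-fold in the challenged once over unchallenged comparison. Hspa8, the constitutive chaperone, stood at 773, 1071 and 507 CPM, and Dnaja1, its co-chaperone, at 121, 163 and 59.4 CPM. In late cells 11 of 11 were lower in the rechallenged than in the challenged once library, beside 22% of all genes tested there, and in B-marker cells the list stood at 7655, 8110 and 5957 CPM. Of the 7 NADPH oxidase genes, 2 were lower in the rechallenged than in the unchallenged members, beside 4.24% of all genes tested. These were Ncf4, a cytosolic subunit, at 403, 376 and 222 CPM, and Rac2, the GTPase of the complex, at 1237, 1265 and 773 CPM. With median-of-ratios scaling Rac2 was short of 1.5-fold. Cybb, the catalytic subunit, stood at 763, 982 and 1002 CPM and passed 1.5-fold in no comparison.

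Azurophil granule genes belong to the stage before. Of 12 measured ones, 3 were higher in the rechallenged than in the unchallenged members, beside 2.43% of all genes tested. The list median was 0.32. Per cell after thinning the list had a median of 3 UMIs in each library, and its 95th percentile was 8, 9 and 14 UMIs in the unchallenged, the challenged once and the rechallenged library. At least 1 UMI was found in 93.3%, 94.7% and 90.4% of members, so the rechallenged library had the highest upper end and the lowest share. Prtn3, proteinase 3, stood at 236, 463 and 663 CPM in members of the unchallenged, the challenged once and the rechallenged library and Srgn, serglycin, at 83.8, 111 and 229 CPM. Elane, bounded by the rule, stood at 308, 336 and 425 CPM. In the tertile of members with most Ltf the list median was -0.31 in the same comparison and the log2 ratio of Prtn3 was -0.024, so the direction turned within that tertile. Egr1, an immediate early transcription factor, and Slc7a11, the cystine transporter, were low but higher in the rechallenged members, at 2.17, 4.42 and 23.7 CPM and 1.43, 2.02 and 23.2 CPM.

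**Figure D4:**
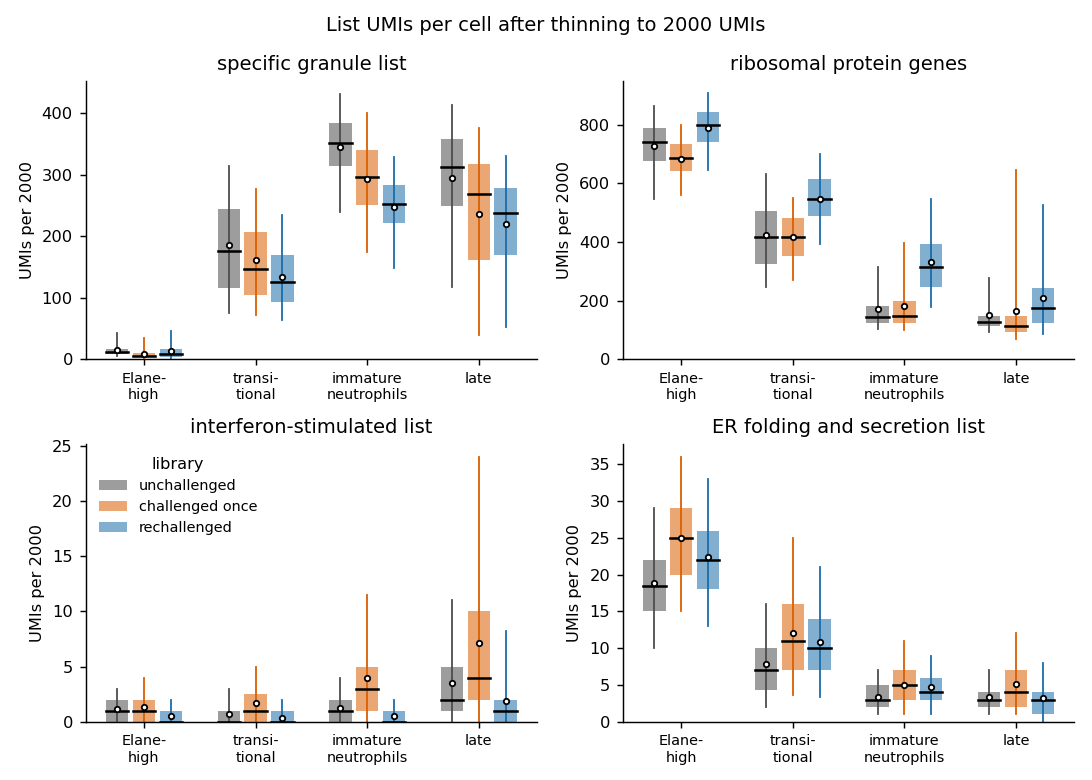
UMIs of 4 gene lists per cell after thinning each cell to 2000 UMIs (y axes) over 4 neutrophil stages (x axis), by library; boxes span the 25th to 75th percentile of cells, bars are medians, points means and lines the 5th to 95th percentile. In members the interferon list has medians of 1, 3 and 0 UMIs in the unchallenged, the challenged once and the rechallenged library, and the ribosomal protein list has medians of 145, 146 and 314 UMIs.

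The members also varied within each library. They were ranked by their Ltf UMIs after thinning to 2000 UMIs, and the highest and lowest tertiles of 947, 264 and 288 cells were compared in the unchallenged, the challenged once and the rechallenged library. Ltf itself is therefore no finding here. Of 756 genes measured in all 3 libraries, 1 was higher past 1.5-fold in all of them (0.132%) and 54 were lower (7.14%). That higher gene was Ly6g, with 661, 354 and 417 CPM in the highest tertiles and 360, 169 and 78.3 CPM in the lowest tertiles. Among the lower genes were Srgn, Prtn3, Npm1, Nkg7 and Eef1a1, and Elane. Summed azurophil granule transcripts had log2 ratios of -0.51 (-0.58 to -0.43), -0.65 (-0.78 to -0.52) and -1.88 (-2.01 to -1.76), and ribosomal protein transcripts -0.63, -0.80 and -0.74. Both sums were lower in the highest tertile of every library, and most so for the azurophil list in the rechallenged library. Chemotaxis genes were higher by 0.30, 0.73 and 0.67 on the log2 scale, but had ratios of 0.03, -0.42 and 0.08 when cells were ranked by Camp and Ngp in place of Ltf. With that other ranking the Ifitm list had ratios of -0.04, 0.30 and 0.50. The S phase list did not go one way when cells were ranked by Ltf, at 0.04, -0.38 and -0.60. Ranked by Camp and Ngp, it was below 0 in every library, at -0.27, -0.50 and -0.33. Depth before thinning differed between tertiles, with medians of 10997, 5481.5 and 8161 UMIs in the highest tertiles and 12458, 12251.5 and 11041 UMIs in the lowest tertiles, and its part was not tested.

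**Figure D5:**
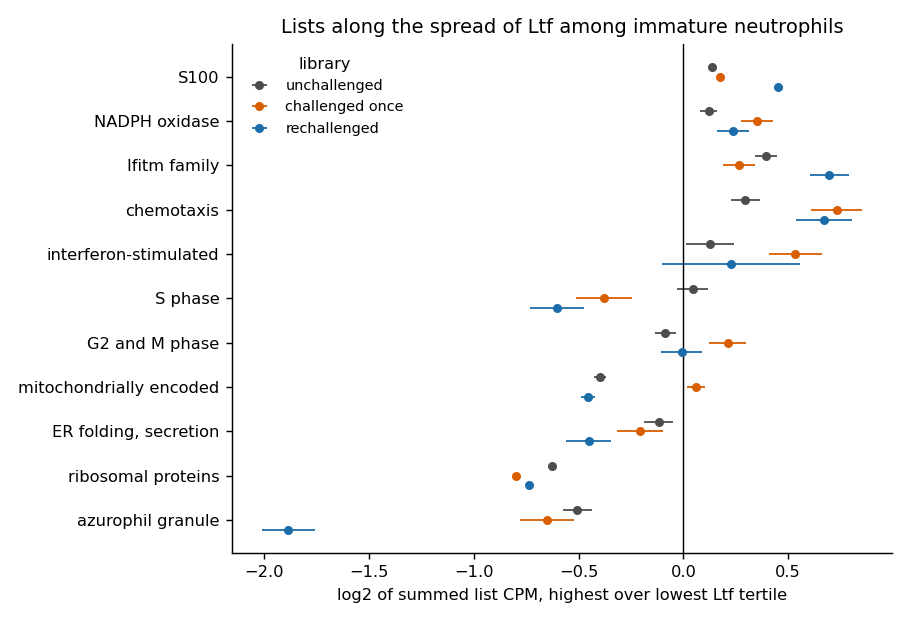
Log2 ratio of summed list CPM, highest over lowest Ltf tertile of members (x axis), for 11 gene lists (y axis) in 3 libraries; lines are 95% Poisson intervals that cover counting error only. Azurophil granule and ribosomal protein lists lie left of 0 in every library, and chemotaxis and Ifitm lists lie right of 0 with this ranking, though not in every library when cells are ranked by Camp and Ngp.

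Stefin A genes had 823 CPM in the highest Ltf tertile of the rechallenged library and 252 CPM in the lowest, a log2 ratio of 1.71 (1.44 to 1.98). The ratio was below 0 in the unchallenged library, at -0.55 (-1.07 to -0.02), and in the challenged once library, at -1.13 (-1.89 to -0.36). Those 2 ratios rested on low levels, 26.1 against 38.1 CPM and 38.3 against 83.6 CPM. Only 74 and 36 thinned members of these libraries held a UMI of the cluster. Poisson intervals do not cover UMIs clumped in a few cells, so no direction is read from these 2 libraries. Interferon genes had log2 ratios of 0.13, 0.53 and 0.23 between the Ltf tertiles, with the interval of the rechallenged library reaching -0.10 to 0.55, and of -0.46, -0.31 and -0.34 when ranked by Camp and Ngp, so their direction turned with the ranking.

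A small set of members held nearly all of the Olfm4 transcripts. Olfm4, olfactomedin 4, a specific granule protein known in human and mouse to be made by only some neutrophils, was named after its values were seen. At least 2 UMIs were found after thinning in 4.26% (3.55 to 5.07), 3.79% (2.57 to 5.36) and 3.47% (2.35 to 4.91) of the unchallenged, challenged once and rechallenged members, and these cells held 91.7%, 95.6% and 96.7% of its UMIs. A Poisson spread of the same mean would give 1.29%, 1.33% and 0.878% of cells with at least 2 UMIs. The ratio of variance to mean was 4.24, 5.07 and 4.47, whereas the median over 1235 genes was 1.04, 1.06 and 1.05. Camp in these cells was 1.01 (0.990 to 1.02), 1.01 (0.972 to 1.05) and 0.944 (0.909 to 0.981) times its level in members with no Olfm4 UMI. In the challenged once library Ngp was 0.918 times (0.879 to 0.960) and Ly6g 1.69 times (1.15 to 2.50) that level, and in the rechallenged library Ltf was 1.22 times (1.10 to 1.35). None of 1186, 1854 and 2238 thinned Elane-high cells had 2 UMIs, with upper bounds of 0.311%, 0.199% and 0.165% on the share with 2 UMIs at 2000 UMIs a cell. Without thinning, 3.03%, 0.744% and 0.754% of Elane-high cells had an Olfm4 UMI. Among thinned late cells the share with at least 2 UMIs was 4.75%, 1.41% and 5.60%.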

How the data were processed

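The deposited tables hold raw UMI counts per gene and cell barcode, made by the authors with Cell Ranger 3.0.0 on mm10, per the submitters' processing notes, from 3′ libraries of the V2 kit, per the labels' protocols. The 3 tables list 9684, 9060 and 8923 barcodes and 31053 genes. No authors' cell annotation was used here. Cells were kept and assigned to stages by the limits given above, UMIs were summed over cells of a stage and library, and divided by their total. With 1 library per group nothing was tested. The named genes are the 8 with the largest higher and lower log2 ratio in each comparison (leaving out ribosomal protein, mitochondrial, immunoglobulin, haemoglobin, predicted and sex-linked genes), up to 4 per list, 5 per direction between stages, and a fixed set of marker and regulator genes. The 38 gene lists hold 600 genes, of which 1 is not in the tables. The members, lists and rules were chosen with earlier results of these data known. Alternatives covered the UMI and gene limits of the cell filter, the limit on Camp with Ngp and the limit on Elane. They also covered the added CPM, the gene minimum, the scaling, thinning, shared barcodes and doublets. The limits on Retnlg, Mmp8 and Mmp9, on Il1b and Cxcl2, on the C1q genes and on mitochondrial UMIs were not varied. Scrublet (scanpy 1.11.5, expected rate 6%) marked 172, 44 and 41 members of the unchallenged, the challenged once and the rechallenged library as doublets, and these were kept. Scripts ran in Python 3.11.15 with numpy 2.4.6 and scipy 1.17.1 and were tested on simulated data. The series text names a different number of samples and another treatment than the sample labels, and the labels were followed.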

Additional observations from a re-analysis of the deposited data

How the results depend on the processing

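No paired analysis was possible because each group was 1 library. Of 120 summary values recomputed under the alternatives, 74 kept their place and 46 moved, of 1460 list medians 1415 kept their side of 1.5-fold, and of 3567 ratios of named genes 3341 did, 223 no longer passed it and 3 reversed. The cause of no shift below was tested beyond what the alternative itself changes. The member share moved to 30.3% in the unchallenged and 8.94% in the rechallenged library with Elane below 1000 CPM, to 38.6%, 11.7% and 14.0% in the unchallenged, the challenged once and the rechallenged library with the rule on thinned cells, and to 22.3%, 7.54% and 9.42% with at most 2 UMIs of other cell type markers, an alternative chosen after seeing the data. With 1 CPM added, 421 genes were higher and 97 lower for challenged once over unchallenged, 534 and 1424 for rechallenged over unchallenged and 208 and 1489 for rechallenged over challenged once. With median-of-ratios scaling the counts were 62 and 35, 355 and 174, and 276 and 208 in the same order, so the split of rechallenged over unchallenged turned from mostly lower to mostly higher. With library totals that left out granule and S100 genes, they were 87 and 53, 159 and 1263, and 121 and 1129. Thinning members gave 292 higher genes for challenged once over unchallenged. The tertile of members with most Ltf, chosen after seeing the data, gave 458 and 36 in that comparison and 530 lower genes for rechallenged over unchallenged. Without thinning, S phase UMIs were found in 89.0%, 84.4% and 90.7% of members and G2 and M phase UMIs in 95.3%, 92.6% and 95.02%, and at least 3 UMIs in 45.3%, 50.3% and 58.0% and in 70.0%, 77.0% and 74.5%. Ranking by Camp and Ngp in place of Ltf gave log2 ratios of -0.29, -0.21 and -0.79 for azurophil and -0.44, -0.43 and -0.43 for ribosomal protein genes, and for S phase -0.27 in the unchallenged and -0.33 in the rechallenged library. For rechallenged over unchallenged, the log2 ratio of Prss34 was -0.62 and that of Ccl5 -0.032 without Scrublet doublets, and that of Prtn3 was -0.024 in the tertile with most Ltf. Leaving out shared barcodes moved none of the 9 summary values recomputed with it. Depth limits genes under 100 UMIs in a pair, most of all in the challenged libraries with 812 and 883 members.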
